A study of Mus musculus with 19 samples.

Results

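Actin regulators are the proteins that build, brace, move and take apart the actin filaments of a cell. The 55 mouse genes described here were chosen by name for these roles, with earlier results of these data known. The array annotation gave a probe to 49 of them, through 71 of its 24048 probes, which carry 14776 gene names in all. No probe carried the names Actr2, Arpc2, Arpc3, Actn1, Flna or Pak2, and these 6 genes have no value here. A total of 36 genes had 1 probe and 13 had several, and a gene was counted by its brightest probe.

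The arrays came from livers, spleens and hearts of male BALB/c mice, all fed an atherogenic diet for 6 weeks and labelled as 12 weeks old. With this diet (AD), the AD + DW group drank distilled water and the AD + OPP group drank oil palm phenolics, a water extract of the oil palm fruit, at 1500 ppm gallic acid equivalent. There were 4 AD + DW and 3 AD + OPP arrays of the liver, and 3 of each group for the spleen and the heart, 19 in all. Signals came from Illumina MouseRef-8 arrays of whole tissue, and the question of the main comparison was what OPP alters in mice that all eat the atherogenic diet. Mice on a normal diet were not analysed here, RNA samples had been picked by their integrity, and the cage of each mouse is not in the labels, so that a shared cage cannot be told apart from OPP.

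Actin is a globular protein that joins into filaments. The Arp2/3 complex starts new branches on a filament when WASP or WAVE proteins switch it on, formins and Ena/VASP proteins lengthen filaments, profilin and cyclase-associated protein feed them with monomers, cofilin and coronin take them down, and capping proteins stop their growth. Signalling proteins such as Rac and Cdc42 set these steps in motion, myosins pull on the filaments, and vinculin, talin, zyxin and the ezrin, radixin and moesin family tie them to the membrane. White blood cells carry their own versions of several of these proteins and rely on them to crawl, to engulf and to squeeze through vessel walls.

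A probe was taken as detected on an array when its deposited detection p was under 0.01. Between 5863 and 7576 probes were detected per array, with the lowest number on spleen AD + DW replicate 3. Markers of the labelled tissue were present: 7 of 8 hepatocyte markers with a probe were detected on every liver array, 7 of 8 cardiomyocyte markers on every heart array, and 4 of 8 B cell markers on every spleen array. On spleen AD + DW replicate 3 the 100 brightest probes held 40% of the signal, against 27.3% to 30.9% on the other spleen arrays. Spleen AD + OPP replicate 1 was low for some genes, since 5 of the 37 actin regulators tested in the spleen, and 5% of all 6664 probes tested there, lay there more than 2-fold below the lower of the other AD + OPP arrays. Liver AD + OPP replicate 3 was low in the same way for 5.31% of 6007 probes and for 1 of 22 actin regulators, Iqgap1.

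In the spleen 34 of the 49 genes with a probe were detected on every array, against 26 in the heart and 19 in the liver. Detected on no array of the organ were 9 genes in the spleen, 16 in the heart and 19 in the liver. Actr3, Capza1, Coro1b, Fmnl1, Gsn, Tmsb10, Tmsb4x and Vasp were detected on none of the 19 arrays. These are a subunit of the Arp2/3 complex, a capping protein, a coronin, a formin of leukocytes, gelsolin, a pair of thymosins that hold actin monomers, and VASP. Each of these genes had 1 probe, and a probe without detection does not show that the transcript is absent. For Cdc42 and Rhoa, 1 probe was detected on every array and their other probes on none. Actg1, cytoplasmic gamma-actin, passed on 1 spleen array only, and Arpc5, another Arp2/3 subunit, on 3 liver and 2 spleen arrays. The remaining 39 genes entered the comparison of organs.

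Most actin regulators gave their highest signal in the spleen. For this comparison the unnormalized signals of all 19 arrays were background corrected and brought to a common distribution (neqc), and organs were compared with limma, averaged over both drinks, with p-values adjusted over 8989 probes. A probe entered when detected on every array of at least 1 group. A gene detected in 1 organ only thus entered through that organ, which set its direction. Against the liver, 31 of the 39 genes were higher in the spleen and 4 lower at an adjusted p under 0.05, where 43.2% and 36% of all probes were higher and lower. The median log2 difference was 1.55 over the genes, or 1.35 with the 11 genes detected in only 1 of these organs at their lower bound, and 0.10 over all probes. Against the heart, 30 genes were higher in the spleen and 4 lower, where 39% and 38.5% of all probes were, with a median of 1.41 over the genes and 0.006 over all probes. In bulk tissue, more cells of a type and more RNA per cell cannot be told apart.

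**Figure D1:**
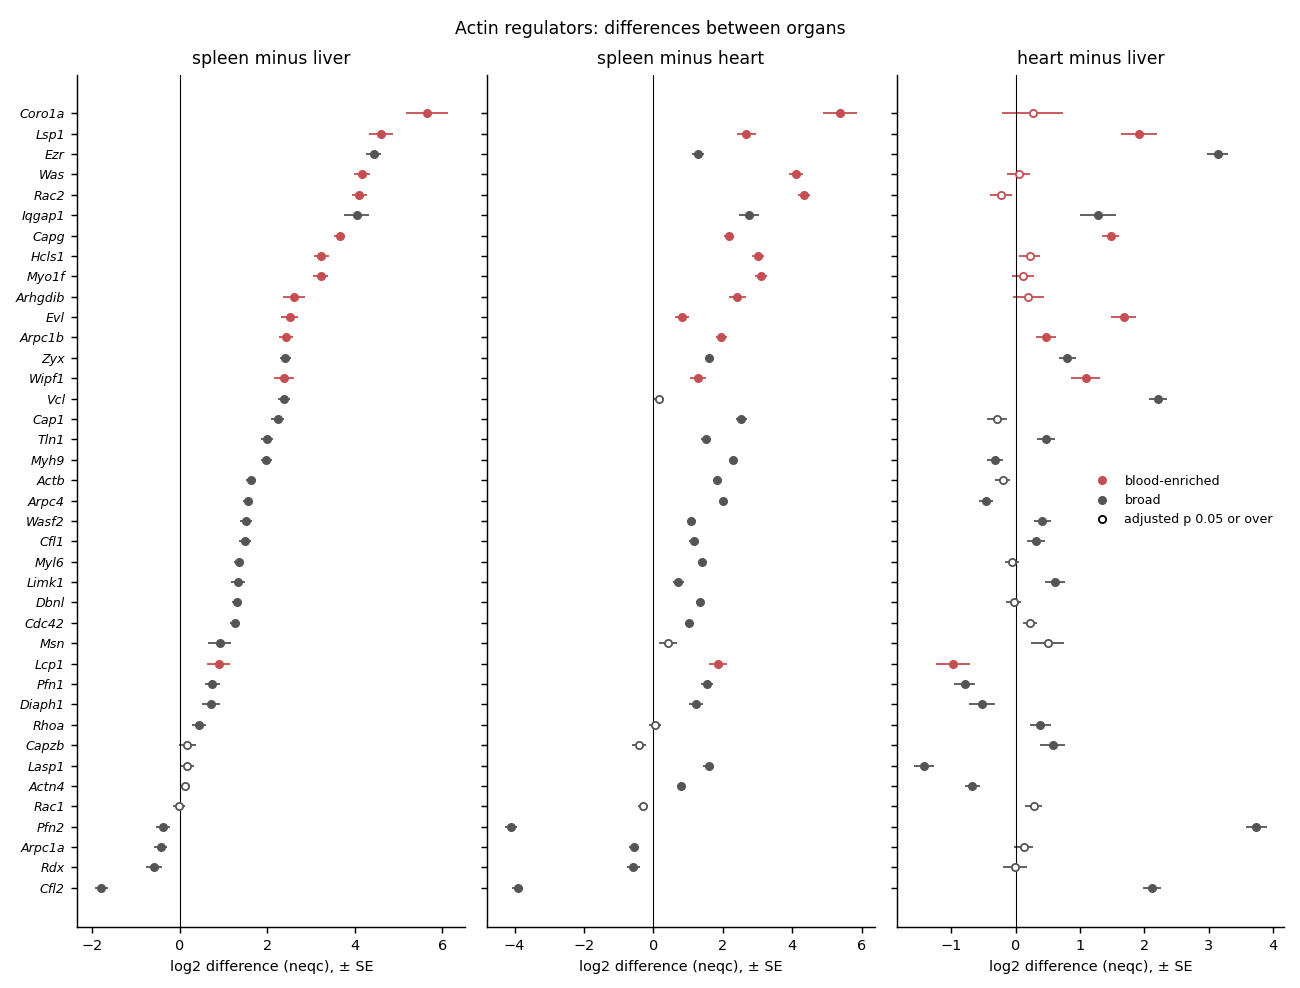
Log2 difference between organs for the 39 actin regulators compared (neqc scale, points with ± SE), in 3 panels with the genes in the order of the spleen minus liver difference. Filled points have an adjusted p under 0.05 and red marks the 12 genes named as blood cell proteins, all of which lie to the right of 0 in both spleen panels. Rac2, Was, Myo1f and Arhgdib among them entered through the spleen alone.

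The 12 genes known from blood cells were all higher in the spleen than in the liver and the heart. Of these, 7 were detected on no liver array and 4 on no heart array, so that only a bound can be given there, and with these at their bound the median log2 difference was 2.52 from the liver and 2.23 from the heart. Rac2, Was, Myo1f and Arhgdib were detected on no array of either and entered through the spleen alone, so that entry set their direction. Coro1a, the coronin of leukocytes, gave the largest differences. Its log2 signal was 12.26 in the lowest, 12.96 in the median and 13.18 in the highest spleen array. In the liver the same values were 5.28, 7.57 and 8.56, and in the heart 6.43, 7.53 and 8.40, so that no liver or heart array came near the spleen. The log2 difference was 5.65 ± 0.47 (SE) from the liver (adjusted p = 3.42e-09) and 5.39 ± 0.49 from the heart (adjusted p = 1.16e-08).

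Rac2, the Rac GTPase of blood cells, and Was, the WASP protein that switches on the Arp2/3 complex, were detected on all 6 spleen arrays and on no liver or heart array. Their entry through the spleen set the direction, so that the p-values given for them are no test of it. Rac2 was at least 8.25-fold higher in the spleen than in the liver (adjusted p = 1.19e-13) and at least 9.32-fold higher than in the heart (adjusted p = 1.23e-13). Was exceeded the liver by at least 9.91-fold (adjusted p = 3.79e-13) and the heart by at least 11.2-fold (adjusted p = 9.4e-13). For these bounds, the organ without detection was given on each array the dimmest signal that still counted as detected, unless the probe itself read higher. Myo1f, a myosin of leukocytes, was also detected in the spleen only, at least 4.33-fold above the liver and 4.89-fold above the heart. Hcls1, a cortactin relative of blood cells, lay at least 5.74-fold above the liver, where 0 of 7 arrays detected it, and 3.02 ± 0.17 log2 units above the heart, where 1 of 6 did.

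Lsp1 and Evl, also known from leukocytes, were detected on every heart array. Lsp1, an actin-binding protein of leukocytes, had log2 signals of 10.16, 10.57 and 11.22 (lowest, median and highest) in the spleen, of 7.54, 7.95 and 8.36 in the heart and of 5.11, 5.85 and 7.14 in the liver, where 2 of 7 arrays detected it. The 3 organs did not overlap, and the log2 differences were 4.60 ± 0.28 between spleen and liver (adjusted p = 3.27e-11), 2.68 ± 0.29 between spleen and heart (adjusted p = 1.06e-07) and 1.92 ± 0.28 between heart and liver (adjusted p = 5.45e-06). Evl, an Ena/VASP protein that lengthens filaments, was detected on 1 of 7 liver arrays. It was 1.68 ± 0.19 log2 units higher in the heart than in the liver (adjusted p = 2.89e-07) and 0.83 ± 0.20 higher in the spleen than in the heart (adjusted p = 0.000982), where single arrays of both organs overlapped.

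Among broadly used genes, Ezr and Iqgap1 showed the widest gap between spleen and liver. Ezr, or ezrin, which links filaments to the membrane, was detected on every spleen and heart array and on no liver array. It was at least 15.4-fold higher in the spleen (adjusted p = 3.95e-14) and at least 6.24-fold higher in the heart (adjusted p = 6.14e-12) than in the liver. Iqgap1, a scaffold for Rac and Cdc42, had log2 signals of 11.05 to 12.06 in the spleen, 8.52 to 9.30 in the heart and 6.29 to 8.37 in the liver, again without overlap. It was higher in the spleen by 4.04 ± 0.28 log2 units than in the liver (adjusted p = 2.7e-10) and by 2.76 ± 0.29 than in the heart (adjusted p = 9.15e-08).

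On their brightest probes, Pfn2, Cfl2, Arpc1a and Rdx were lower in the spleen than in both other organs, and Pfn2 and Cfl2 had their highest signals in the heart. Pfn2, a profilin best known from neurons and muscle, had log2 signals of 9.74, 10.07 and 10.24 in the heart. In the spleen these were 5.35, 5.87 and 6.48 with 1 of 6 arrays detected, and in the liver 5.81, 6.38 and 6.74 with 3 of 7. The log2 difference was -4.12 ± 0.17 for spleen minus heart (adjusted p = 2.01e-13) and 3.74 ± 0.16 for heart minus liver (adjusted p = 3.76e-13). For spleen minus liver it was only -0.38 ± 0.16 (adjusted p = 0.045), between overlapping signals that were mostly below detection. Cfl2, the cofilin of muscle, had log2 signals of 8.88 to 9.23 in the heart and 6.49 to 7.71 in the liver, and was detected on no spleen array. It was at least 6.87-fold higher in the heart than in the spleen (adjusted p = 5.81e-14), at least 1.63-fold higher in the liver than in the spleen (adjusted p = 1.88e-09) and 2.12 ± 0.14 log2 units higher in the heart than in the liver (adjusted p = 1.9e-10). Vcl, or vinculin, which holds filaments at adhesion sites, was not among these and was higher in the heart than in the liver by 2.21 ± 0.14 (adjusted p = 8e-11), with log2 signals of 10.62 to 10.94 against 8.08 to 8.92, and its spleen signals of 10.14 to 11.31 overlapped those of the heart.

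Relatives within a family are set side by side here, and the difference between relatives was not tested. Cfl1, the general cofilin, was detected through its only probe on 5 of 6 spleen arrays and on no liver or heart array, at least 1.28-fold and 1.45-fold above them, while Cfl2 was lowest in the spleen. Pfn1, the general profilin, was 1.54 ± 0.17 log2 units higher in the spleen than in the heart, whereas Pfn2 was lower in the spleen. Rac1 was detected on all 19 arrays with log2 differences of -0.02 ± 0.13 between spleen and liver and -0.30 ± 0.135 between spleen and heart, neither past the threshold (adjusted p = 0.9 and 0.052), beside the large differences of Rac2. Arpc1b and Arpc1a encode alternative versions of the same Arp2/3 subunit. Arpc1b was 2.42 ± 0.16 higher in the spleen than in the liver and 1.96 ± 0.16 higher than in the heart, and Arpc1a was lower in the spleen, with log2 differences of -0.44 ± 0.15 and -0.56 ± 0.15. A dimmer Arpc1a probe gave -0.02 from the liver and -0.01 from the heart (adjusted p = 0.936 and 0.974). Another gave -0.73 from the liver (adjusted p = 0.000387), with mean log2 signals of 7.28 in the spleen and 7.905 in the heart. Rdx, or radixin, also had its lowest level in the spleen, with log2 differences of -0.59 ± 0.19 from the liver and -0.58 ± 0.20 from the heart, while Msn, or moesin, was 0.92 ± 0.26 above the liver. The other Rdx probe gave -0.47 from the liver and -0.06 from the heart (adjusted p = 0.109 and 0.844). Actb, beta-actin, was 1.63 ± 0.12 higher in the spleen than in the liver and 1.83 ± 0.12 higher than in the heart. Actn4, an alpha-actinin that bundles filaments, was 0.80 ± 0.12 higher in the spleen than in the heart and 0.12 ± 0.12 from the liver (adjusted p = 0.355). With the deposited normalized signals in place of neqc it was -0.36 from the liver (adjusted p = 0.0174), where the median of all probes was -0.15.

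Heart and liver differed less evenly. At an adjusted p under 0.05, 17 of the 39 genes were higher in the heart and 7 lower, where 41.5% and 30.5% of all probes were. The median was 0.27 over the genes against 0.10 over all probes. It was 0.20 with the 6 genes detected in only 1 of these organs at their lower bound. Of the 17, Cfl1 (0.32, adjusted p = 0.0426) was detected on no array of either organ. Rac2, Was, Myo1f and Arhgdib, also detected on no heart or liver array, were among the 39 without passing. Lasp1, a LIM and SH3 protein of adhesion sites, was farthest below the liver, with a log2 difference of -1.42 ± 0.15 (adjusted p = 1.36e-07) and log2 signals of 7.01 to 7.91 in the heart and 8.46 to 9.05 in the liver. With the deposited normalized signals in place of neqc the split was 11 higher and 11 lower, the median of all probes moved from 0.10 to -0.17, and Rhoa, a GTPase that drives contraction, turned from 0.38 to -0.10 for heart minus liver and from 0.43 to -0.07 for spleen minus liver.

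In the spleen, more actin regulators had a higher than a lower mean signal with OPP, and none passed the adjusted threshold. Here the deposited normalized signals, floored at 10 and on a log2 scale, were compared with limma for 37 of the genes among 6664 probes. A total of 24 genes had a higher mean in AD + OPP and 13 a lower one, 64.9% higher against 41.8% of all probes. The median log2 fold change was 0.21 over the 37 genes and -0.07 over all probes. The genes were chosen with earlier results of these data known, so that these figures are no test of the list. At an adjusted p under 0.05 there were 0 genes and 0 probes, 0% of the 6664. At an unadjusted p under 0.05 there were 10 higher and 2 lower genes, where 8.09% and 8.42% of all probes were, 16.5% together. Without AD + OPP replicates 1, 2 and 3 in turn there were 10, 5 and 8 higher and 2, 2 and 1 lower. Without AD + DW replicates 1, 2 and 3 in turn there were 7, 11 and 7 higher and 1, 2 and 2 lower. The share of all probes at this threshold was not counted without an array, so these counts cannot be set beside it. The groups did not overlap, with AD + OPP above, for 11 genes, and below for 2, where 11.1% and 12.3% of all probes were. The smallest adjusted p, 0.0712, was shared by Lasp1, Zyx and Evl, and was the smallest of all probes.

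**Figure D2:**
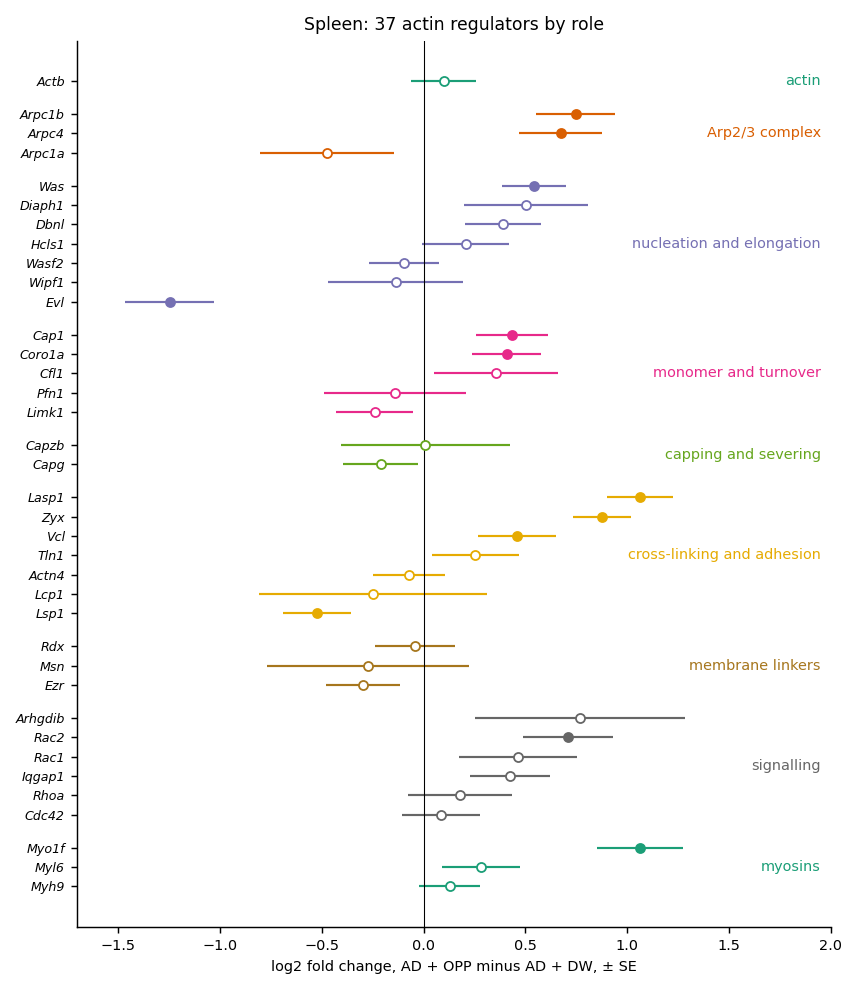
Log2 fold change of AD + OPP over AD + DW in the spleen for the 37 actin regulators tested, grouped by role, as points with ± SE. Filled points have an unadjusted p under 0.05. The points run from Evl at -1.25 to Lasp1 at 1.06, and the 3 myosins lie to the right of 0.

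A pair of adhesion proteins had the smallest p-values. Lasp1 had normalized signals of 351, 394 and 309 in the AD + DW spleens and of 702, 732.5 and 759.5 in the AD + OPP spleens. Zyx, or zyxin, a LIM protein that gathers Ena/VASP proteins at adhesion sites, had signals of 3134, 3271 and 2913 against 5726, 5734 and 5620.1. For both genes every AD + OPP array lay far above every AD + DW array, and the 3 arrays of each group lay close together. The log2 fold change was 1.06 ± 0.16 (SE) for Lasp1 and 0.88 ± 0.14 for Zyx (adjusted p = 0.0712 for each). Of the 3 Lasp1 probes, 1 was tested. Without AD + DW replicate 2 Lasp1 passed the threshold at 1.15 ± 0.17 (adjusted p = 0.0362), where 2.47% of 6810 probes did. Vcl had signals of 1361.5, 1693 and 1173 against 2136.5, 1808 and 1813, without overlap, a log2 fold change of 0.46 ± 0.19 (adjusted p = 0.3). Tln1, or talin, which couples integrins to filaments, was at 394, 594 and 384 against 484, 572 and 550.3, with the groups overlapping (log2 fold change 0.25 ± 0.22, adjusted p = 0.604).

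In the same role, Lsp1 lay on the lower side, with signals of 1891, 1574 and 1593 in AD + DW and 1255, 1228 and 1037 in AD + OPP, so that all AD + OPP arrays were below all AD + DW arrays. Its log2 fold change was -0.52 ± 0.17 (adjusted p = 0.182). Lcp1, or L-plastin, which bundles filaments in leukocytes, had signals of 240.1, 161 and 347 against 82.4, 327 and 295. Its lowest value was AD + OPP replicate 1, and its log2 fold change of -0.25 ± 0.56 became 0.39 ± 0.34 without that array. Taking out the lowest AD + OPP array can only raise this value. It was -0.61 without AD + OPP replicate 2 and -0.53 without replicate 3.

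**Figure D3:**
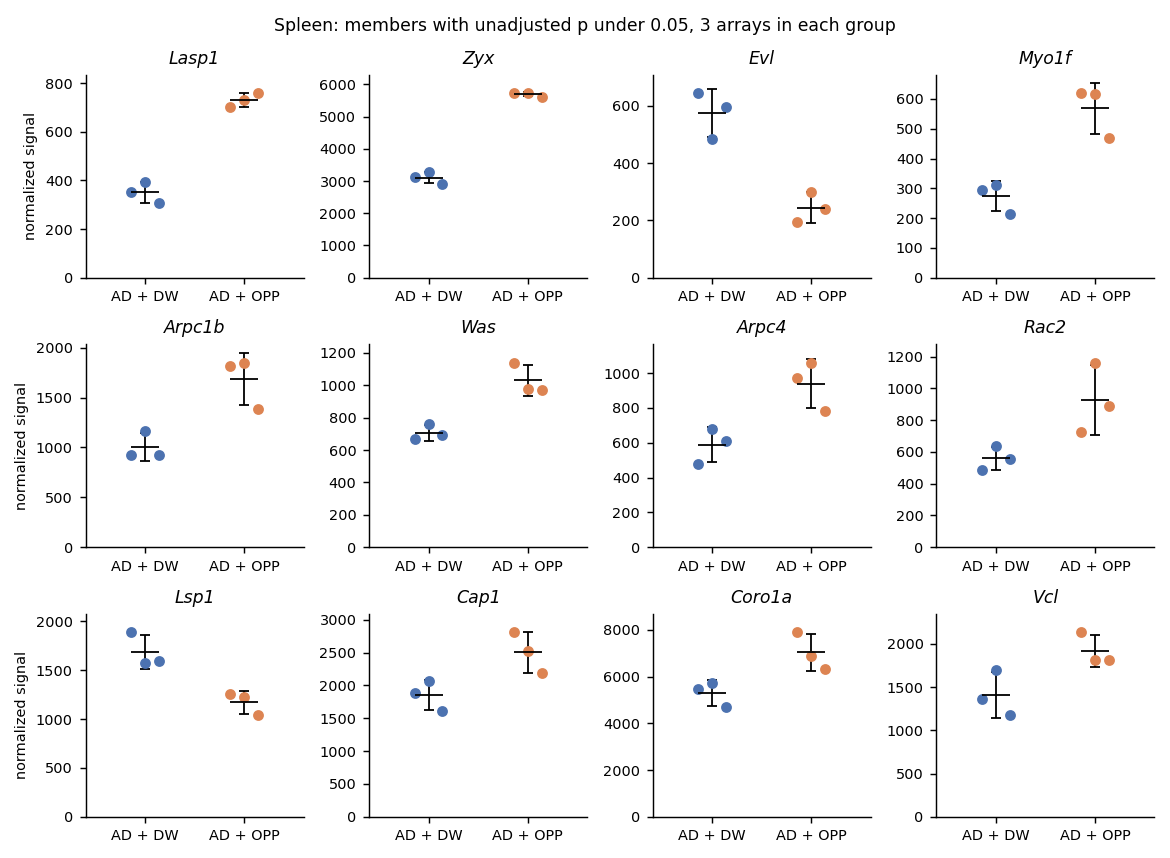
Normalized signal in each spleen array (points) with the mean and SD of 3 arrays (bar and whiskers) for the 12 actin regulators with an unadjusted p under 0.05, with each axis starting at 0. In every panel all AD + OPP points lie on one side of all AD + DW points, above for 10 genes and below for Evl and Lsp1.

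Of the Arp2/3 subunits, 3 could be tested. Arpc1b had signals of 921, 1167 and 921.5 in AD + DW and 1818, 1852 and 1388 in AD + OPP, a log2 fold change of 0.75 ± 0.19 (adjusted p = 0.116). The other Arpc1b probe gave 0.78 (adjusted p = 0.105). Arpc4 had signals of 479, 677 and 612 against 970.2, 1060.2 and 783, also without overlap, and 0.67 ± 0.20 (adjusted p = 0.162). The third subunit, Arpc1a, gave 362, 363 and 476 against 173, 326 and 412, and overlapped between the groups. Its 3 probes had log2 fold changes of -0.48, 0.13 and 0.03, so that the direction depended on the probe.

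Nucleators and elongation factors were divided between the directions. Was, which activates the Arp2/3 complex, had signals of 666, 758 and 691 against 1140.1, 977 and 971, with every AD + OPP array higher and a log2 fold change of 0.54 ± 0.16 (adjusted p = 0.145). Evl showed the opposite, at 645, 483 and 597 in AD + DW and 193, 300.2 and 240.1 in AD + OPP. Its log2 fold change of -1.25 ± 0.22 (adjusted p = 0.0712) was the largest in size among the 37 genes. Wipf1, the partner that stabilizes WASP, lay at -0.14 ± 0.33 (adjusted p = 0.867). Hcls1 at 0.21 ± 0.21, the formin Diaph1 at 0.50 ± 0.30, Wasf2 (the WAVE protein WAVE2) at -0.09 ± 0.17 and Dbnl, a drebrin-like adaptor, at 0.39 ± 0.19 overlapped between the groups, with adjusted p-values from 0.366 to 0.818.

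Among signalling proteins, Rac2 had signals of 487, 636 and 556 against 725, 1163 and 890.0, without overlap, at 0.71 ± 0.22 (adjusted p = 0.174). Iqgap1 had 2956, 2335 and 2016 against 3583, 3150.4 and 2976, also without overlap though by a narrow margin, at 0.42 ± 0.19 (adjusted p = 0.34). Arhgdib, a signalling inhibitor of blood cells, had 135, 198 and 203.5 against 125, 476 and 452. Its low value again came from AD + OPP replicate 1, and without that array its log2 fold change moved from 0.77 ± 0.52 (adjusted p = 0.518) to 1.40 ± 0.25 (adjusted p = 0.176). It was 0.43 without AD + OPP replicate 2 and 0.47 without replicate 3. Rac1 at 0.46 ± 0.29, Rhoa at 0.18 ± 0.25 and Cdc42, which drives filopodia, at 0.09 ± 0.19 overlapped between the groups.

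Among proteins of monomer supply and turnover, Cap1, the cyclase-associated protein that recycles monomers, had signals of 1890.5, 2062 and 1617.5 against 2814, 2521 and 2188, at 0.43 ± 0.18 (adjusted p = 0.295). Coro1a had 5476, 5725.5 and 4693.5 against 7907, 6894 and 6310.0, at 0.41 ± 0.17 (adjusted p = 0.299), and its dimmer probes gave 0.42 and -0.18. For both genes the groups did not overlap on the brightest probe. Pfn1 had 538.5, 658 and 695 against 328, 836 and 671, where AD + OPP replicate 1 was the lowest of all 6 arrays. Its log2 fold change was -0.14 ± 0.35, and 0.26 ± 0.22 without that array, -0.42 without AD + OPP replicate 2 and -0.26 without replicate 3. Cfl1 at 0.35 ± 0.30 and Limk1, the kinase that inactivates cofilin, at -0.24 ± 0.19 overlapped between the groups.

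Of the myosins, Myo1f had signals of 295, 310.5 and 215 against 620.1, 616 and 470.4, so that all AD + OPP arrays lay above, with a log2 fold change of 1.06 ± 0.21 (adjusted p = 0.0786). Myh9, the heavy chain of non-muscle myosin, was at 0.13 ± 0.15 and Myl6, a light chain, at 0.28 ± 0.19, where the other Myl6 probe gave -0.05. The membrane linkers were the only role with all 3 genes on the lower side, Ezr at -0.30 ± 0.18, Msn at -0.28 ± 0.50 and Rdx at -0.04 ± 0.19, none past the test (adjusted p from 0.478 to 0.936). Msn was at 54.8 on AD + OPP replicate 1 and at 162 and 164 on the other AD + OPP arrays, and moved to 0.25 ± 0.35 without that replicate. It was -0.53 without AD + OPP replicate 2 and -0.54 without replicate 3. The cappers Capzb at 0.01 ± 0.41 and Capg at -0.21 ± 0.18, and Actb at 0.10 ± 0.16 and Actn4 at -0.07 ± 0.18, had overlapping groups.

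Blood cell markers also differed between the same spleen arrays. Of 12 neutrophil genes 11 were tested, and all 11 had higher means in AD + OPP with an unadjusted p under 0.05 and a median log2 fold change of 1.97. The summed normalized signal of the neutrophil genes was 53190 to 121700 in AD + DW and 161100 to 176900 in AD + OPP. Of 10 B cell genes 6 were tested and all 6 were lower, median -1.19, with sums of 3391 to 4647 against 1368 to 1992, and Cr2 and Pax5 were detected on no spleen array. Of 12 T cell genes 5 were tested and all 5 were lower, median -1.09, with sums of 2227 to 3513 against 1453 to 2014, and Cd247, Cd4 and Cd5 were detected on no spleen array. Macrophage and monocyte genes were lower for 5 of 6 tested, median -0.67, with sums of 3523 to 6007 against 2358 to 3466, and Clec4f, Ctsk and Vsig4 were detected on no spleen array. Red cell genes were lower for 5 of 5, median -0.37, with sums of 106000 to 166900 against 90400 to 97770. Platelet and megakaryocyte genes were higher for 4 of 5, median 0.66, with sums of 6246 to 7514 against 6673 to 9620, which overlapped. No marker passed the adjusted threshold. Of the 12 actin regulators known from blood cells, 7 had higher and 5 lower means in AD + OPP, and the part of cell makeup in these values was not tested.

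**Figure D4:**
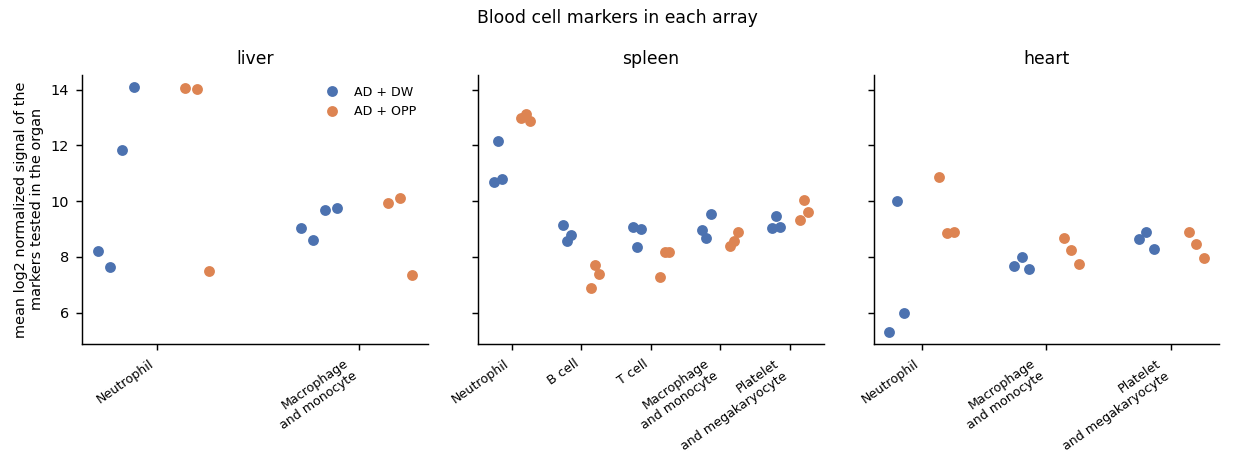
Mean log2 normalized signal of the blood cell markers tested in each organ, with 1 point per array, AD + DW in blue and AD + OPP in orange. In the spleen the neutrophil points run from 10.69 to 12.15 in AD + DW and from 12.89 to 13.14 in AD + OPP, while in the liver and the heart the points of a group spread widely.

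Promoter sequence is shown for the 4 genes that illustrate both directions in the spleen, from RefSeq on build GRCm38.p6, each running from 250 bases before to 50 bases after the start used for that window. Such a window was on hand for 48 of the 55 genes, in 63 windows. The CArG box, the site of serum response factor, which is known to act on actin genes, was found in 4 of these 63 windows (6.35%), those of Vcl, Arpc4, Myl6 and Actg1, and in 535 of all 32851 promoter windows (1.63%). Capitals mark the CArG box in Vcl and Arpc4, the AP-1 type motif TGANTCA (with C or G at N) in Zyx, and GGGCGG, the core of the SP1 site, on either strand in Evl. Vcl is on the plus strand at chr14:20929148-20929447, Arpc4 on the plus strand at chr6:113377863-113378162, Zyx on the plus strand at chr6:42349578-42349877, and the upstream of 2 Evl windows on the plus strand at chr12:108554470-108554769. The gene annotation begins Zyx at chr6:42349511, so that its whole window lies inside the annotated gene. The annotated starts of Vcl (chr14:20929383) and Evl (chr12:108554681) lie inside their windows, ahead of the start used.
Vcl: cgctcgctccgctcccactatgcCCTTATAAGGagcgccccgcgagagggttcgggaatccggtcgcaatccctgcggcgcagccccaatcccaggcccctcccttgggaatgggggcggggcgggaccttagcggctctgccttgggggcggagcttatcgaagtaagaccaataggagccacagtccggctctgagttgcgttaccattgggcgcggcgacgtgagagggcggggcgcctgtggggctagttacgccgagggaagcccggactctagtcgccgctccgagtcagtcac
Arpc4: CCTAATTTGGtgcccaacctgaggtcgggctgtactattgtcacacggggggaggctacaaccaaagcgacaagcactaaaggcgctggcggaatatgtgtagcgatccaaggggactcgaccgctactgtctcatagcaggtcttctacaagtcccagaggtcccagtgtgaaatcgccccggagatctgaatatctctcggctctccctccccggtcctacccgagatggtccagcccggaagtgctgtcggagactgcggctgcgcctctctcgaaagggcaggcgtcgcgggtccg
Zyx: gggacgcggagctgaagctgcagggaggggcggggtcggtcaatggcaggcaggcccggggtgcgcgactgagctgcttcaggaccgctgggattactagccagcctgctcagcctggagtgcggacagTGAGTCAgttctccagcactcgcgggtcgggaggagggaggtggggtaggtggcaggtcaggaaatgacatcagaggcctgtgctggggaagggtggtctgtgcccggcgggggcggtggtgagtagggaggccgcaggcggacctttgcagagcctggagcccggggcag
Evl: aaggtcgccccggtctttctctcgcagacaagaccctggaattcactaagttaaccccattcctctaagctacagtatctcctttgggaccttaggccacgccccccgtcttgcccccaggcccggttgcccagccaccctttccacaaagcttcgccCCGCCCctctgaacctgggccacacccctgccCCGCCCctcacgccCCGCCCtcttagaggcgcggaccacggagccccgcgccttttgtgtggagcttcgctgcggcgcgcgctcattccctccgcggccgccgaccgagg

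The CArG box began 227 bases before the start used for the window in Vcl and 250 before it in Arpc4. Both genes were on the higher side with OPP in the spleen, neither past the adjusted threshold (adjusted p = 0.3 and 0.162). A link between the box and the direction was not tested. The other pair with this box were Myl6, at 0.28 ± 0.19, and Actg1, which could not be tested. TGANTCA in this form was in 3 of the 63 windows (4.76%), those of Zyx, Ezr and Hcls1, and in 5.2% of all windows. In Zyx 1 match stood 121 bases before the start used for the window, inside the annotated gene. GGGCGG was in 45 of the 63 windows (71.4%) against 35.7% of all windows, with 3 matches in Evl. It was also in the windows of Vcl and Zyx, where it is left in lower case. GAGGAAG, a core of the PU.1 site of white blood cells, searched on both strands, was in 12.7% of the windows of these genes and 13.6% of all windows. A match is a run of letters and was not tested as a binding site.

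In the liver, 22 of the genes were tested among 6007 probes. At an adjusted p under 0.05 there were 0 genes and 0% of probes, and at an unadjusted p under 0.05 there were 0 higher genes and 1 lower, where 3.95% and 4.29% of all probes were, 8.24% together. The median log2 fold change was 0.03 over the genes and -0.005 over all probes, with 13 higher and 9 lower. Cfl2 had normalized signals of 196, 114, 240.4 and 176 in the AD + DW livers and of 102, 102 and 130 in the AD + OPP livers. The groups overlapped through AD + DW replicate 2, and the log2 fold change was -0.67 ± 0.25 (adjusted p = 0.59). The groups did not overlap for 1 higher gene, Arpc4, and for 0 lower genes, where 4.01% and 4.36% of all probes were. Arpc4 was at 239, 259, 287 and 322 against 384, 336 and 325, a log2 fold change of 0.34 ± 0.15 (adjusted p = 0.592).

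The remaining 3 liver genes with the smallest p overlapped between the groups. Vcl had signals of 592, 607, 430.0 and 440.4 against 453, 327 and 448, at -0.34 ± 0.19 (adjusted p = 0.642). Capzb, a capping protein, had 596, 709, 773 and 722 against 734, 885 and 788, at 0.20 ± 0.14 (adjusted p = 0.687). Tln1 had 131, 106, 124 and 132 against 197, 114 and 142, at 0.26 ± 0.20 (adjusted p = 0.705). Actb on its brightest probe was at -0.003 ± 0.15, and on a dimmer one at 0.28 (unadjusted p = 0.0442).

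In the liver, Coro1a and Iqgap1 spread widely within both groups. Coro1a had signals of 101, 51.1, 216 and 427 on the AD + DW livers and of 369, 471 and 11.3 on the AD + OPP livers. Iqgap1 had 183.5, 209, 265 and 373 against 431, 385 and 74.1. The mean log2 signal of the 3 neutrophil markers tested was 8.21, 7.64, 11.83 and 14.10 on the same AD + DW arrays and 14.06, 14.02 and 7.49 on the AD + OPP arrays. AD + DW replicates 1 and 2 and AD + OPP replicate 3 were the lowest arrays for all 3 measures, and no group was apart from the other. The part of the leukocyte content in these values was not tested. Coro1a was detected on 5 of 7 liver arrays and was not in the test.

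In the heart, 29 genes were tested among 6580 probes. There were 0 genes and 0% of probes at an adjusted p under 0.05, and 0 genes at an unadjusted p under 0.05 in either direction, where 2.17% of probes were higher and 1.46% lower, 3.63% together. The groups did not overlap for 1 higher and 1 lower gene, where 4.16% and 3.54% of all probes were. A total of 18 genes were higher and 11 lower, with a median of 0.10 against 0.006 over all probes, and adjusted p was 0.999 for every gene. Cdc42 had signals of 475, 573 and 457 in AD + DW and of 599, 614 and 591 in AD + OPP, without overlap, at 0.27 ± 0.13. Cfl2 did not overlap in the other direction, at 542, 585 and 577 against 493, 537 and 457, a log2 fold change of -0.20 ± 0.12.

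Rhoa had heart signals of 986.5, 666 and 710 against 1079, 788 and 1293, at 0.41 ± 0.23. Msn had 93.8, 54.8 and 79.3 against 135, 68.2 and 114, at 0.45 ± 0.29. For both genes the groups overlapped. Coro1a had 119, 252 and 76.8 against 341, 197.5 and 152, at 0.72 ± 0.45, with the groups overlapping. The mean log2 signal of the 6 neutrophil markers tested was 5.31, 10.02 and 6.0 on the same AD + DW hearts and 10.85, 8.87 and 8.91 on the AD + OPP hearts. AD + OPP replicate 1 and AD + DW replicate 2 were the highest arrays for both measures, and AD + DW replicates 1 and 3 the lowest. Of the 12 neutrophil genes, Elane and Mpo were detected on no heart array, and the summed signal was 390.5 to 14920 in AD + DW and 6138 to 24120 in AD + OPP. The part of these cells in the Coro1a values was not tested. The dimmer Arpc1b probe was at 0.51 (unadjusted p = 0.025), and the brighter one at 0.21 ± 0.17.

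**Figure D5:**
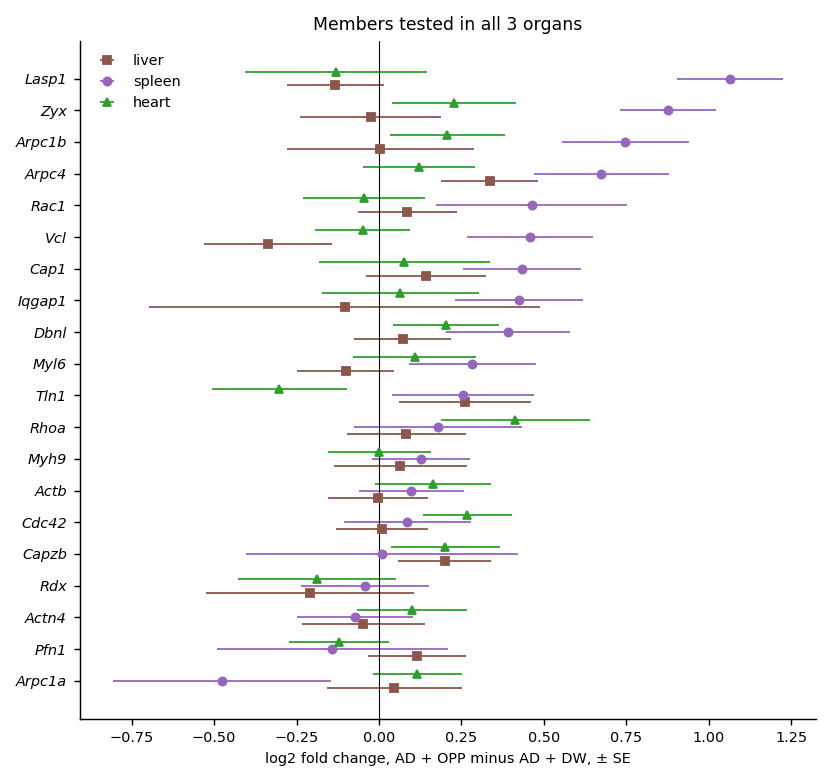
Log2 fold change of AD + OPP over AD + DW (points with ± SE) in liver, spleen and heart for the 20 actin regulators tested in all 3 organs, in the order of the spleen. At the top, Lasp1 reaches 1.06 in the spleen and lies at -0.13 in both liver and heart, while Zyx reaches 0.88 in the spleen and lies at -0.02 in the liver and 0.23 in the heart.

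Whether OPP acted differently between organs was tested directly, in a limma fit over all 19 arrays. No actin regulator passed an adjusted p under 0.05 between spleen and liver (0.436% of 8032 probes did), between spleen and heart (0.221% of 8152) or between liver and heart (0% of 7738). Between spleen and liver 4 of 38 genes had an unadjusted p under 0.05, or 10.5%, against 12.4% of all probes. Lasp1 was the nearest, with an OPP effect 1.2 ± 0.30 log2 units higher in the spleen than in the liver (adjusted p = 0.0932) and 1.19 ± 0.31 higher than in the heart (adjusted p = 0.179). Its signals had been 616, 625.5, 589.5 and 589 against 462, 555 and 656 in the liver, and 221, 124 and 171 against 214.5, 117 and 143 in the heart, where the groups overlapped. Zyx differed by 0.90 ± 0.28 from the liver (adjusted p = 0.196) and by 0.65 ± 0.29 from the heart (adjusted p = 0.485). Vcl and Cfl2 differed between spleen and liver by 0.79 ± 0.26 and 0.85 ± 0.37 (adjusted p = 0.214 and 0.366), and Cfl2 was detected on no spleen array. Pfn2, at -1.11 ± 0.41 between spleen and heart (adjusted p = 0.384), was below detection on 5 of 6 spleen arrays. With neqc values 2 genes passed between spleen and liver, Lasp1 at 1.3 ± 0.31 (adjusted p = 0.0396) and Myo1f at 1.39 ± 0.33 (adjusted p = 0.0449), where 1.64% of all probes did.

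A further list of 98 genes of the actin system was divided evenly between the directions in the spleen. In the spleen 45 were tested, 22 with higher and 23 with lower means in AD + OPP, and 10 and 11 had an unadjusted p under 0.05, where 8.09% and 8.42% of all probes did, with a median of -0.03. The smallest p-values belonged to Rhog, a Rac-like GTPase, at 0.70 ± 0.15 (adjusted p = 0.0786), Cnn3, a calponin, at -0.89 ± 0.19 (adjusted p = 0.08), and Svil, or supervillin, at 1.11 ± 0.24 (adjusted p = 0.0817). Rhog had a mean of 216 ± 13 (SD, n = 3) against 352 ± 10.3, Svil of 126 ± 33.3 against 265 ± 29.2 and Cnn3 of 514 ± 51.6 against 280.4 ± 53.0, each without overlap. In the liver 23 were tested and 0 had an unadjusted p under 0.05, where 8.24% of all probes did, the smallest belonging to Swap70, Marcksl1 and Myl12a at -0.39 ± 0.19, -0.41 ± 0.21 and 0.33 ± 0.17. In the heart 41 were tested, with 1 higher and 1 lower where 2.17% and 1.46% of all probes were, Myo1g, a leukocyte myosin, at 0.43 ± 0.16 and Arpc5l, an Arp2/3 subunit, at -0.36 ± 0.15, and next Elmo1, which helps to activate Rac, at 0.30 ± 0.15, with adjusted p = 0.999 for each.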

How the data were processed

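RNA of mouse liver, spleen and heart had been hybridised to Illumina MouseRef-8 arrays, after the authors picked the RNA samples of highest integrity and left out arrays that clustered apart. The labels do not name the mouse behind an array, and arrays of different organs may share mice. The deposited signal intensity values, with and without normalization, were made by the authors with BeadStudio 1.5.1.3 (submitters' processing notes), and a deposited detection p-value came with each. The authors' own error model was not repeated.

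Genes were assigned through the platform annotation: of 24048 probes, 19398 carried 1 symbol and 4650 none. A probe was tested when detected at p under 0.01 on every array of either group. Normalized intensities were floored at 10, taken to log2 and fitted with limma 3.58.1 in R 4.3.3 (lmFit and eBayes, two-sided), with Benjamini-Hochberg adjustment. Organs were compared on neqc values, and the OPP effect between organs in 1 fit over 19 arrays. Scripts were tested on simulated data. Genes given with full values were those with the smallest p (10 in spleen, 5 each in liver and heart) and the 6 of largest size per organ contrast, and others were chosen after their values were seen. The members and gene lists were chosen with earlier results of these data known. The slide of each array is not in the labels, so slide and group cannot be told apart, and the number of arrays limits the precision. Alternatives covered the floor, the detection filter, neqc, variance settings, array weights, replicate blocks and leaving out each array.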

Additional observations from a re-analysis of the deposited data

How the results depend on the processing

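With a floor of 50, 3 actin regulators passed in the spleen (Evl, Lasp1 and Zyx, where 1.52% of all probes did), with trended and robust variance 5 (also Arpc1b and Myo1f, 3.33%), with array weights 3 (Evl, Lasp1 and Zyx, 2.12%) and in 1 fit over the 19 arrays 3 (Arpc4, Lasp1 and Zyx, 3.81%), against 0 in the comparison reported. Leaving out 1 spleen array gave 0 to 1, the 1 being Lasp1 without AD + DW replicate 2, where 2.47% of all probes passed. A test per probe without the shared variance of limma gave 9 higher and 2 lower at an unadjusted threshold in the spleen, where 929 of all 6664 probes passed. After Benjamini-Hochberg 0 genes and 0 probes remained. The spleen median of 0.21 became 0.31 with neqc, 0.13 without the detection filter and 0.13 over every probe, and 0.15 to 0.32 without 1 array, the highest without AD + OPP replicate 1. The OPP effect differed between spleen and liver for 2 genes with neqc, where 1.64% of all probes did. With the deposited signals 4 genes turned sign for spleen minus liver, 1 for spleen minus heart and 4 for heart minus liver. Rhoa was among them in both contrasts with the liver. Actn4 turned from 0.12 (adjusted p = 0.355) to -0.36 (adjusted p = 0.0174) for spleen minus liver. In the spleen Lcp1, Msn and Pfn1, none past the test, turned sign for OPP without AD + OPP replicate 1, the lowest of their AD + OPP arrays. Arrays with the same replicate number had correlations from -0.397 to 0.189 between AD + DW and AD + OPP within an organ. Between organs within a drink these ran from -0.185 to 0.191. With so few arrays they cannot tell whether organs share mice. With the replicate block 0 genes and 0% of all probes passed for OPP in each organ. Between organs 35, 35 and 24 genes passed with the block, against 35, 34 and 24 without it. Without it, 43.2% of all probes were higher and 36% lower for spleen minus liver. For spleen minus heart these shares were 39% and 38.5%, and for heart minus liver 41.5% and 30.5%. With the block the share of all probes was not counted.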
